A study of Mus musculus with 6 samples.

Results

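The astrocyte genes of the mouse hippocampus were read as a group of 33 genes whose products mark this cell or carry out its work. The rule names the genes and uses no measured value, although the list was drawn up with earlier results of these data known. Each gene stands for the brightest probe set that carries its symbol alone. All 33 were measured, out of 19938 genes on the array. The samples were 3 RNA pools from ethanol-treated mice and 3 RNA pools from saline-injected control mice. Ethanol-treated pups were injected under the skin with ethanol at 2.5 g/kg, dissolved in 0.15 M NaCl, 2 times a day on postnatal day 4 and again on postnatal day 7, and control pups received 0.15 M saline on the same schedule. All mice were male C57BL/6J, and the whole hippocampus was taken on postnatal day 70. Littermates were divided between ethanol and saline. Each pool held RNA of 3 mice that were not littermates, which makes 9 mice per group but only 3 measurements. The spread between arrays is therefore the spread between pools, and the differences between the mice within a pool are not seen. No cells were sorted, and fewer astrocytes and less RNA per astrocyte cannot be told apart in such tissue.

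Astrocytes are the glial cells that fill the space between neurons and blood vessels. They clear glutamate and GABA from the synapse, return glutamine to neurons, buffer potassium and water, store glycogen, and are joined to each other by gap junctions. Injury makes them reactive, with more intermediate filament protein. In the mouse hippocampus they are still being generated and are maturing in the first postnatal weeks, the period of the injections. Several of the genes are also used by other cells of the tissue, among them Vim in vessels and ependyma, Clu in neurons and ependyma, Id3 in vessels, and Glul in oligodendrocytes.

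The levels are RMA values on the log2 scale, where 1 unit is a doubling of signal. They were used as deposited, and a difference is the mean of the ethanol pools minus the mean of the saline pools, so a positive value means a higher level after ethanol. The array medians lay between 5.84 and 5.89. Olfactory and vomeronasal receptor genes, which the hippocampus has little use for, gave a level for probe sets with no clear signal: 95% of 1194 such genes lay below 5.38. All 33 astrocyte genes were above this level and above the median gene at 6.79, with group means between 7.68 and 12.8 in the ethanol pools and between 7.64 and 12.8 in the saline pools. The array therefore measured every gene of the group well above its floor, although a level in whole hippocampus does not tell which cell it came from.

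The astrocyte genes differed little between ethanol and saline hippocampus, as did most genes on the array. Of the 33 genes, 15 had a higher mean in the ethanol pools, as did 9994 of all 19938 genes. The median difference was -0.0043, against 0.00014 over all genes. The difference was smaller than 0.05 in 23 astrocyte genes and smaller than 0.1 in 29. Among all 19938 genes it was smaller than 0.05 in 12443 and smaller than 0.1 in 17778. The median size of the difference was 0.028 among the astrocyte genes and 0.037 among all genes. The 4 genes beyond 0.1 were Agt, which was higher in the ethanol pools, and Aldh1l1, Cbs and F3, which were lower.

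With limma, no probe set passed an adjusted p under 0.05, in the group or elsewhere on the array (0% of 23410, lowest adjusted p = 0.931). At an unadjusted p under 0.05, 1202 probe sets passed with limma. The methods name an ANOVA, which with 2 groups is the ordinary t-test, and by it 1161 passed, with 0 left after adjustment. Counted by gene, 5.22% of 19938 passed the unadjusted threshold, 2.8% with a higher and 2.41% with a lower level after ethanol. Of the 33 astrocyte genes 1 passed, Cbs, which was lower, and 0 passed with a higher level. A count of 1 among 33 is no more than this background. The 6 pools can also be compared without a model. In 10.4% of all genes the ethanol and saline pools did not overlap, with the ethanol pools all above in 5.35% and all below in 5.09%. Among the astrocyte genes this held for 4 (12.1%), with Slc6a11 above and Slc1a2, Slc1a3 and Cbs below, which again lies near the background.

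**Figure D1:**
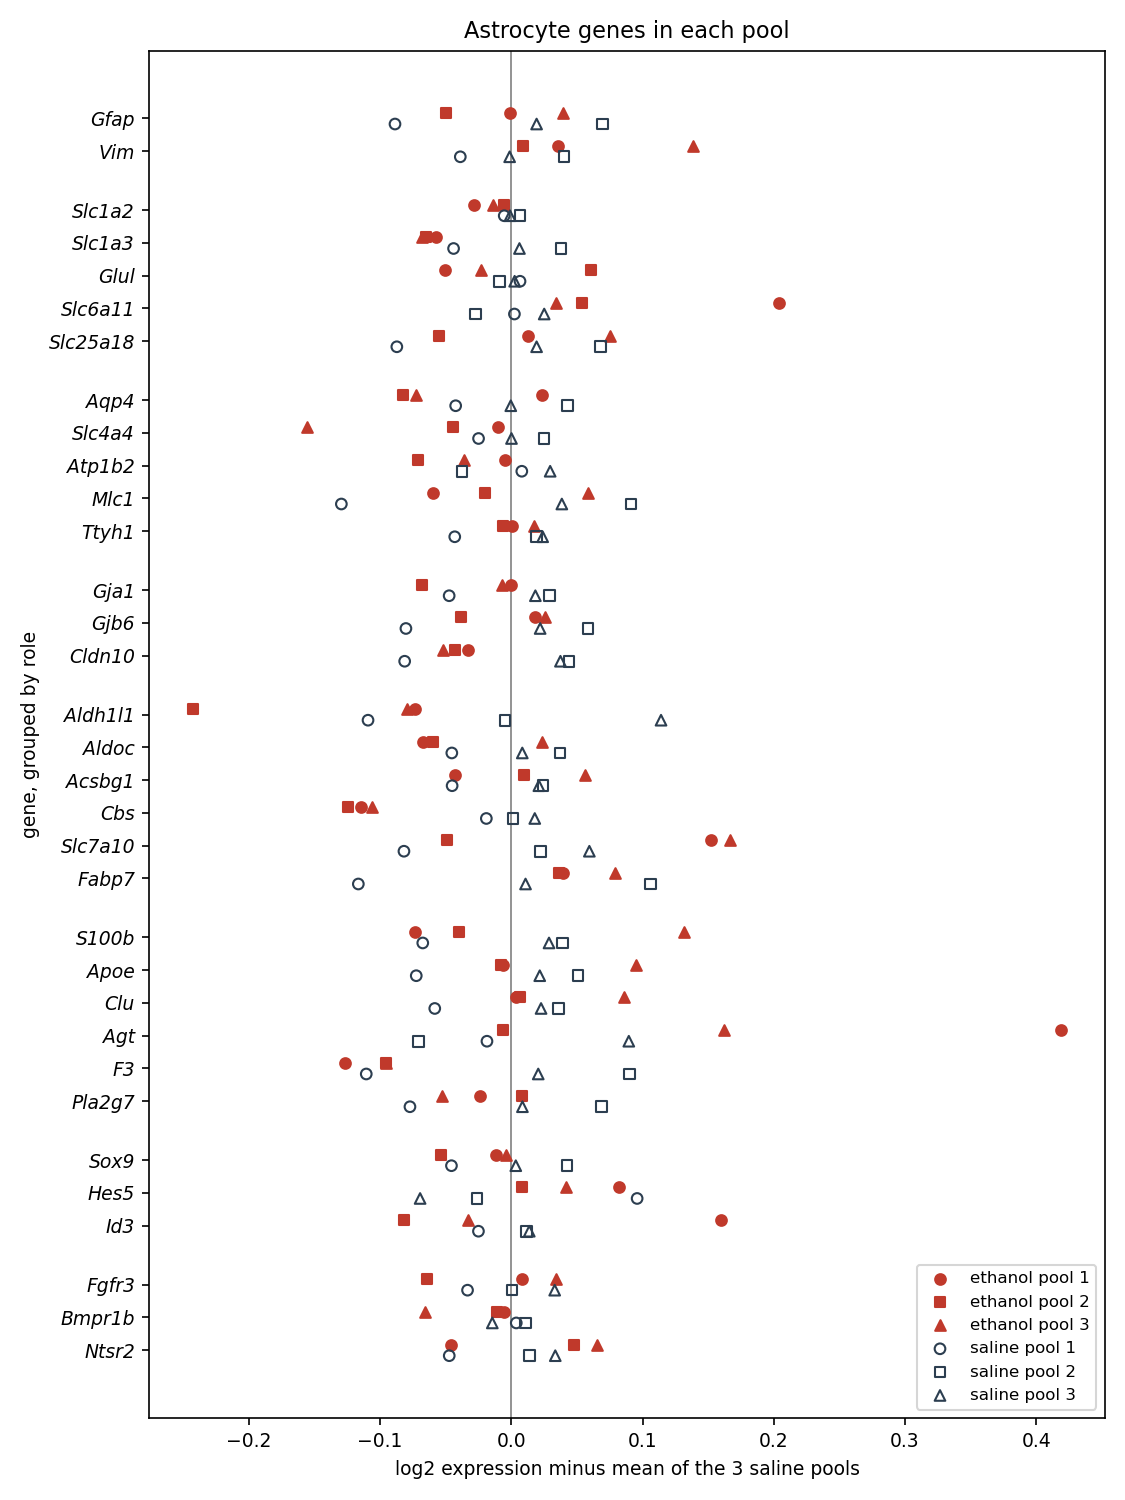
Level of each of the 33 astrocyte genes by pool, on the log2 scale after the gene's saline mean was subtracted. Each gene has a row, ordered by role, with the ethanol pools drawn just above the saline pools. Most points lie close to 0, Agt in ethanol pool 1 is the furthest from it at 0.42, and saline pool 1 is below the other saline pools for 27 of the 33 genes.

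The intervals show which differences the 6 arrays could have missed. The standard error of the difference had a median of 0.047 among the astrocyte genes (0.036 to 0.098), close to the 0.049 of all genes. For 31 of the 33 genes (93.9%) the 95% interval of the difference lay wholly within a 1.2-fold change in either direction, as it did for 92% of all genes. For these 31 genes a lasting change in pooled hippocampus of more than 1.2-fold lies outside the interval from limma. That interval uses a spread moderated across probe sets. Intervals from the ordinary t-test, which uses the spread of the gene alone, were not computed and can be wider. The other two were Agt, with an interval reaching 1.33-fold, and Aldh1l1, with an interval reaching down to 0.819-fold.

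**Figure D2:**
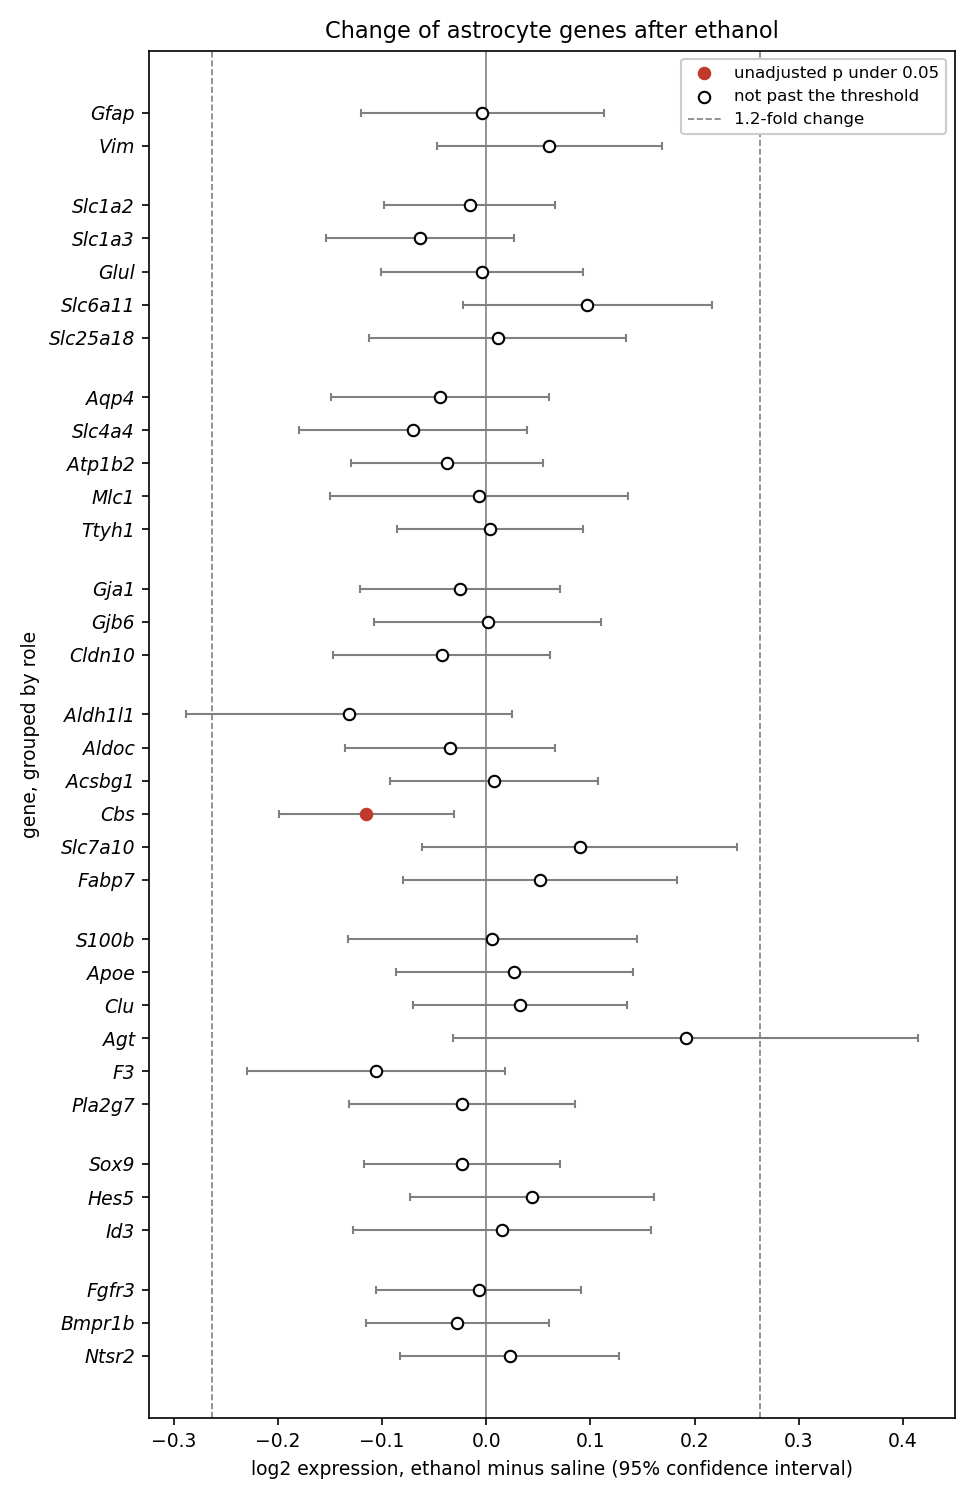
Log2 difference, ethanol minus saline, of each astrocyte gene with its 95% interval from limma, over 3 pools per group, with lines at a 1.2-fold change in each direction. Cbs is the gene whose interval, -0.20 to -0.03, does not reach 0, and the intervals of Agt and Aldh1l1 cross the 1.2-fold lines.

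The 5 genes for the uptake and recycling of transmitters gave 0 calls. Slc1a2, the transporter GLT-1 that takes up most glutamate in the forebrain, measured 12.58, 12.6034 and 12.59 in the ethanol pools, against 12.6035, 12.62 and 12.61 in the saline pools. All ethanol pools were below all saline pools, but by a mean of only 0.016, with a standard error of 0.036. Slc1a3, the related transporter GLAST, measured 11.64, 11.64 and 11.63 in the ethanol pools, against 11.66, 11.74 and 11.71 in the saline pools. The 3 ethanol pools lay within 0.02 of each other and below every saline pool, and the difference was -0.06 ± 0.04 (SE), with a 95% interval of -0.15 to 0.03. Neither passed the test. Glul, the glutamine synthetase that turns the glutamate taken up into glutamine, had one of the smallest differences, -0.0043 ± 0.04, and its dimmer probe set gave -0.03. Slc25a18, a mitochondrial glutamate carrier, differed by 0.01 ± 0.05.

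Slc6a11 encodes GAT-3, the GABA transporter of astrocyte processes. It measured 11.00, 10.85 and 10.83 in the ethanol pools, against 10.80, 10.77 and 10.82 in the saline pools. Every ethanol pool was above every saline pool, but ethanol pool 3 only by 0.01 over saline pool 3, and ethanol pool 1 stood above the rest. The difference was 0.10 ± 0.05 (95% interval -0.02 to 0.22) with all pools and 0.04 without ethanol pool 1, and it did not pass the test in either case. A list of 15 genes of the thalamus, which lies next to the hippocampus, had its ethanol pools in the same order: ethanol pools 1, 2 and 3 lay above its saline mean by 0.69, 0.25 and 0.13, and the saline pools within 0.03 of it. GAT-3 is known as a transporter that is abundant in the thalamus. The part of thalamic tissue in the Slc6a11 values was not tested.

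The filament genes that accompany reactive gliosis were level between the groups. Gfap, the filament protein that most often serves to mark astrocytes, measured 10.70, 10.65 and 10.74 in the ethanol pools, against 10.61, 10.77 and 10.72 in the saline pools. The lowest and the highest value were both in saline pools, and the difference was -0.0038 ± 0.05 (95% interval -0.12 to 0.11, or 0.92-fold to 1.08-fold). Vim, the vimentin of the same filaments, measured 10.82, 10.80 and 10.92 in the ethanol pools, against 10.75, 10.83 and 10.79 in the saline pools. Only ethanol pool 3 was above all saline pools, and the difference was 0.06 ± 0.05.

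Genes for water, ions and junctions gave 0 calls among 8. Aqp4, the water channel of the endfeet that cover vessels, measured 10.80, 10.69 and 10.70 in the ethanol pools, against 10.73, 10.82 and 10.77 in the saline pools, and the groups overlapped at a difference of -0.04 ± 0.05. Slc4a4, a sodium bicarbonate cotransporter that sets pH, measured 11.01, 10.97 and 10.86 in the ethanol pools, against 10.99, 11.04 and 11.02 in the saline pools. Its difference of -0.07 ± 0.05 was the furthest from 0 of the 8. Atp1b2, a subunit of the sodium pump, differed by -0.04, Mlc1, a membrane protein whose loss causes a leukoencephalopathy with swollen white matter, by -0.0071, and Ttyh1, a membrane protein of the tweety family, by 0.0037. The connexins that form the gap junctions between astrocytes differed by -0.03 (Gja1) and 0.00165 (Gjb6). Cldn10, a claudin, differed by -0.04 in its brighter probe set and by the same amount in its dimmer one.

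The one call of the group was a gene of sulfur amino acid metabolism. Cbs encodes cystathionine beta-synthase, which joins homocysteine to serine, the first step from homocysteine to cysteine and so towards glutathione. It measured 8.65, 8.64 and 8.66 in the ethanol pools, against 8.74, 8.76 and 8.78 in the saline pools. The pools of each group lay close together (SD 0.0093 in ethanol and 0.018 in saline pools). The groups did not overlap, as in 10.4% of all genes. The difference was -0.11 ± 0.04 (95% interval -0.20 to -0.03), a level 0.923-fold that of the saline pools. It passed the unadjusted threshold in 15 of 15 alternative treatments of the data and ranged from -0.12 to -0.11 when single pools were left out, but its adjusted p over the array was 0.931 with limma, and it is under a 1.2-fold change. The sequence upstream of its start site is shown because Cbs carried the call. The 250 bases before the start (RefSeq, GRCm38.p6, chr17:31637206-31637455, minus strand, written 5′ to 3′ along the gene) hold the letters CCAAT on either strand, in capitals, beginning 52 and 15 bases before the start.
Cbs: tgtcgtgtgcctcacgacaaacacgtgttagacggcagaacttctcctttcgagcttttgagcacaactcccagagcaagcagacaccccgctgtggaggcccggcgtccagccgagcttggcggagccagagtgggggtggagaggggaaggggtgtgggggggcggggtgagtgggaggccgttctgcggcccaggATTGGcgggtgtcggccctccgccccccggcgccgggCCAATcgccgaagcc

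The other genes of metabolism did not pass the test. Aldh1l1, a folate enzyme whose protein marks astrocytes throughout the brain, measured 8.80, 8.64 and 8.80 in the ethanol pools, against 8.77, 8.87 and 8.99 in the saline pools. The groups overlapped through saline pool 1, and the difference was -0.13 ± 0.07 (95% interval -0.29 to 0.02). Without saline pool 1 it was -0.19 and passed the unadjusted threshold, and over the single pools left out it ranged from -0.19 to -0.07. Slc7a10, a transporter of small neutral amino acids such as D-serine, measured 9.73, 9.52 and 9.74 in the ethanol pools, against 9.49, 9.60 and 9.63 in the saline pools. Ethanol pools 1 and 3 were above all saline pools and ethanol pool 2 was among them. Its difference was 0.09 ± 0.07, and 0.16 without ethanol pool 2, where it passed the unadjusted threshold. Aldoc, the aldolase of brain glycolysis, differed by -0.03, Acsbg1, an enzyme that activates long-chain fatty acids, by 0.0076, and Fabp7, a fatty acid binding protein of radial glia and astrocytes, by 0.05.

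Of the secreted and calcium-binding proteins, Agt had the largest difference of the 33 genes. Agt encodes angiotensinogen, the precursor of the angiotensins, which in brain is made mostly by astrocytes. It measured 9.88, 9.46 and 9.62 in the ethanol pools, against 9.44, 9.39 and 9.55 in the saline pools. Ethanol pool 2 was below saline pool 3, so the groups overlapped, and the ethanol pools were spread more widely (SD 0.21) than the saline pools (SD 0.082). The difference was 0.19 ± 0.10 (95% interval -0.03 to 0.41), or 1.14-fold, and did not pass the test. It was 0.08 without ethanol pool 1, and it was 0.29 and passed the unadjusted threshold without ethanol pool 2. Relative to the saline mean, Agt stood at 0.42 in ethanol pool 1, -0.0067 in pool 2 and 0.16 in pool 3. In the same pools, the mean of 14 genes of the choroid plexus epithelium stood at 1.11, -0.28 and 0.66, and that of 14 genes of meninges and fibroblasts at 0.24, -0.10 and 0.18. The thalamus list stood at 0.69, 0.25 and 0.13. The part of these neighbouring tissues in the Agt values was not tested.

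In human liver cells the gene for angiotensinogen is controlled through STAT3, a factor also active in reactive astrocytes, and the letters TTCNNNGAA that STAT factors bind were looked for before the start site. The upstream sequence of Agt is shown for the 1 match, in capitals, which begins 172 bases before the start (RefSeq, GRCm38.p6, chr8:124569707-124569956, minus strand).
Agt: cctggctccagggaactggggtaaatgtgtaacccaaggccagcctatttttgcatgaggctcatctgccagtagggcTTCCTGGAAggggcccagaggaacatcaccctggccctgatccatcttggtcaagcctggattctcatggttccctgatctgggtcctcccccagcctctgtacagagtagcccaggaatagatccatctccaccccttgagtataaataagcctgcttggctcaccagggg

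F3 encodes tissue factor, which starts blood clotting and is made by astrocytes in brain. It measured 9.43, 9.46 and 9.46 in the ethanol pools, against 9.44, 9.64 and 9.57 in the saline pools. Saline pool 1 lay among the ethanol pools, and the difference was -0.11 ± 0.05 (95% interval -0.23 to 0.02) with it and -0.16 without it, where it passed the unadjusted threshold. The remaining genes of this kind were close to level. S100b, a calcium-binding protein that astrocytes also release, differed by 0.0059, and its ethanol pools were 9.42, 9.45 and 9.62, against 9.42, 9.53 and 9.52 in the saline pools. Apoe, the lipid carrier of the brain, differed by 0.03, Clu, the chaperone clusterin, by 0.03, and Pla2g7, a secreted hydrolase of platelet-activating factor, by -0.02.

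**Figure D3:**
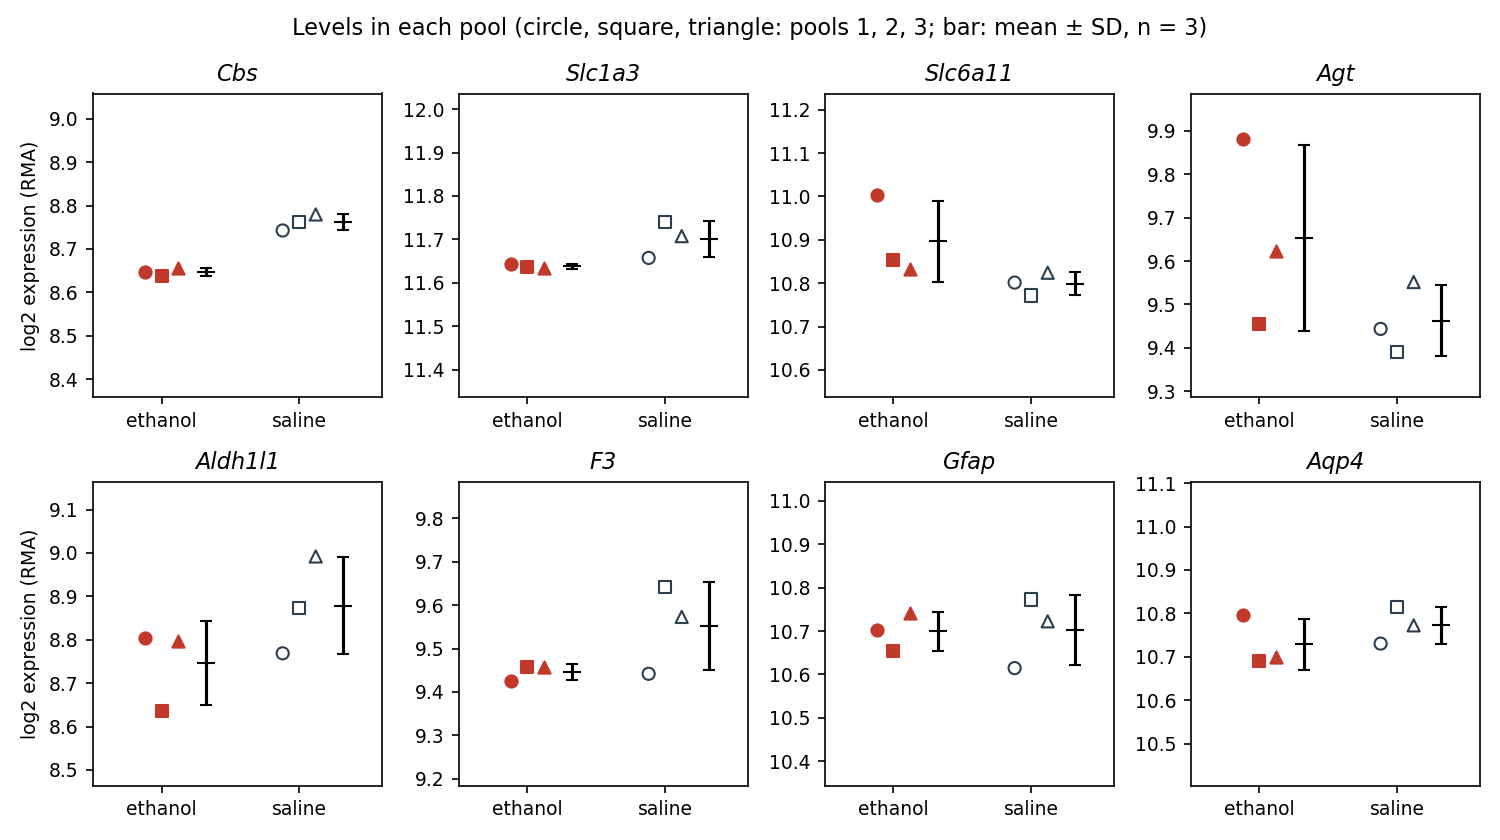
Log2 level of 8 astrocyte genes in every pool, ethanol left of saline, with the mean and SD of 3 pools per group. Cbs, Slc1a3 and Slc6a11 have groups that do not overlap, Agt has 1 ethanol pool well above all others, saline pool 1 lies with the ethanol pools in Aldh1l1 and F3, and Gfap and Aqp4 have mixed pools.

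Genes of signalling and cell fate were also level. Sox9, the transcription factor that sets glial fate, measured 9.99, 9.95 and 9.998 in the ethanol pools, against 9.96, 10.04 and 10.005 in the saline pools. Its difference was -0.02 ± 0.04. Hes5, a repressor switched on by Notch, differed by 0.04 ± 0.05. Id3, an inhibitor of basic helix-loop-helix factors that BMP signals switch on, measured 7.96, 7.72 and 7.77 in the ethanol pools, against 7.78, 7.81 and 7.82 in the saline pools. Ethanol pool 1 was the highest and the other two ethanol pools the lowest, so the difference was 0.015 with all pools and -0.06 without ethanol pool 1. The receptors Fgfr3, for fibroblast growth factors, Bmpr1b, for BMPs, and Ntsr2, for neurotensin, differed by -0.0074, -0.03 and 0.02 in this order.

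In the mean over the 33 genes, the pools within a group differed from each other more than the groups did. Relative to the saline mean of each gene, the 33 genes averaged 0.0097, -0.03 and 0.01 over ethanol pools 1 to 3, against -0.05, 0.03 and 0.02 over saline pools 1 to 3. Saline pool 1 was the lowest of the saline pools in 27 of the 33 genes (81.8%), while among the 12399 genes above the receptor level it was the lowest in 46.5%. It was the lowest of all 6 pools in 14 astrocyte genes (42.4%, against 23.1% of the genes above the receptor level). Saline pool 2 was the highest of the 6 in 15 (45.5%, against 21.9%). These shares describe 1 set of 6 arrays and carry no test, since the genes of one pool are not independent. Leaving out saline pool 1 moved the median difference of the 33 genes from -0.0043 to -0.03, and over all single pools left out it ranged from -0.03 to 0.01.

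Lists of other genes tied to astrocytes were read in the same way. Of 50 further astrocyte genes, 0 passed the unadjusted threshold with a higher and 4 with a lower level, against 2.41% of all genes that were called lower, and the median was -0.0023. The 4 were Gpr179, an orphan receptor (-0.14, at the receptor level), Slc15a2, a transporter of small peptides (-0.14), Ppp1r3c, which brings a phosphatase to glycogen (-0.12), and Chrdl1, a secreted BMP antagonist. Slc15a2 and Ppp1r3c did not pass the ordinary t-test. With single pools left out, Slc15a2 ranged from -0.19 to -0.09 and Ppp1r3c from -0.16 to -0.08. Both lost the call when any pool other than ethanol pool 3 and saline pool 1 was left out. The list had its lowest pool in saline pool 1 as well, at -0.06, against 0.04 and 0.03 in saline pools 2 and 3.

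Of 31 measured genes that rise in reactive astrocytes, 2 passed with a higher and 4 with a lower level (median 0.02), against 2.8% of all genes called higher and 2.41% called lower, and 13 of the 31 were at the receptor level. Hspb1, a small heat shock protein, was higher by 0.23 ± 0.07 and Emp1, a membrane protein, by 0.16 ± 0.06. Clcf1, a cytokine of the interleukin-6 family at the receptor level, was lower by a difference of -0.16, and the others that were lower were S1pr3, Cd44 and Stat3. Hspb1 measured 7.72, 7.52 and 7.72 in the ethanol pools, against 7.39, 7.54 and 7.32 in the saline pools. Its groups overlapped through ethanol pool 2 and saline pool 2, and it did not pass the ordinary t-test. Emp1 was higher in all ethanol pools than in any saline pool, but it passed neither the ordinary t-test nor the fit with the replicate number as a block, and without ethanol pool 3 its difference was 0.098 and without saline pool 3 it was 0.12, with no call in either case. Genes of this list thus passed in both directions, and Gfap and Vim, described above, in neither.

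Astrocytes also release factors that help synapses form. Of 10 such genes, 0 passed with a higher and 2 with a lower level (2.41% of all genes), Thbs4, a thrombospondin (-0.21 ± 0.08), and Gpc6, a glypican that recruits glutamate receptors to synapses (-0.13 ± 0.04). Thbs4 did not pass the ordinary t-test, and it ranged from -0.29 to -0.14 with single pools left out, and it lost the call when any pool other than ethanol pool 3 and saline pool 2 was left out. Gpc6 was not called without saline pool 1, at -0.11. Of 25 Notch and BMP partners of Hes5 and Id3, 1 passed, Id1, a close relative of Id3, with a higher level. This count is near the 2.8% of all genes called higher. Id1 measured 7.17, 7.04 and 7.13 in the ethanol pools, against 6.92, 6.90 and 6.98 in the saline pools. Its groups did not overlap, the difference was 0.18 ± 0.05 (adjusted p = 0.931 with limma), and it passed the unadjusted threshold in 15 of 15 alternatives, whereas Id3 differed by 0.015. No gene passed in either direction among 15 fibroblast growth factors and receptors, the family to which Fgfr3 belongs.

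The other cell types of the tissue were read from marker lists in the same way. The neuron list (13 genes measured) and the microglia list (11) had 0 calls and medians of -0.02 and 0.01. The lists of endothelium (11 genes), mural cells (10) and neural stem and progenitor cells (9) had 0 calls as well. The myelin list (13 genes) had 0 higher and 4 lower calls and a median of -0.11, against 2.41% of all genes called lower, with Opalin, Mal and Tspan2 furthest from 0. Only 1 of the 13 had a higher mean in the ethanol pools. Mal passed the unadjusted threshold in 15 of 15 alternatives. Opalin did not pass the ordinary t-test, and it kept its call with 2 of the 6 single pools left out, those of ethanol pool 1 and saline pool 1. Tspan2 lost its call without ethanol pool 2 and without saline pool 3. The means of the myelin list were -0.07, -0.20 and -0.04 in the ethanol pools, against -0.07, 0.06 and 0.0070 in the saline pools. In the mean of this list, saline pool 1 was thus the lowest saline pool too. Saline pool 1 was also the lowest saline pool for microglia, at -0.07 in that pool, and for ependyma, at -0.10. The same held for choroid plexus epithelium, at -0.17, endothelium, at -0.02, and mural cells, at -0.02. It was the highest saline pool for neurons, thalamus, and neural stem and progenitor cells. For meninges and fibroblasts, saline pool 2 was the lowest. The ependyma list (10 genes) had 1 call, Ccdc153, which was lower and lost the call without ethanol pool 1, without ethanol pool 2 and without saline pool 3.

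In the thalamus list 15 of 15 genes had a higher mean in the ethanol pools, and 10 passed the unadjusted threshold with a higher level (median 0.28), against 2.8% of all genes. Its choice was not independent of these arrays, since it includes Tcf7l2, Slitrk6 and Vipr2, which the study named from them, so its count is no independent evidence of its direction. Of its named genes, Ramp3 and Prkcd did not pass the ordinary t-test, and without ethanol pool 1 their differences of 0.76 and 0.67 became 0.41 and 0.36. Tcf7l2 differed by 0.59, and by 0.40 without that pool. In the choroid plexus list 14 of 14 had a higher mean, against 9994 of all 19938 genes. Of the 14, 3 passed, Kl, Steap1 and Kcne2 (median 0.51), against 2.8% of all genes called higher. The choroid plexus list was also chosen with earlier results of these data known. Kl, Steap1 and Kcne2 did not pass the ordinary t-test, and they lost the call when any pool other than ethanol pool 2 and saline pool 3 was left out. Without ethanol pool 1 the difference of Kl was 0.30, against 0.52 with it, that of Steap1 0.30, against 0.50, and that of Kcne2 0.25, against 0.45. The meninges list had 0 calls and a median of 0.09. The means of these lists were highest in ethanol pool 1, and their part in the values of the astrocyte genes was not tested.

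**Figure D4:**
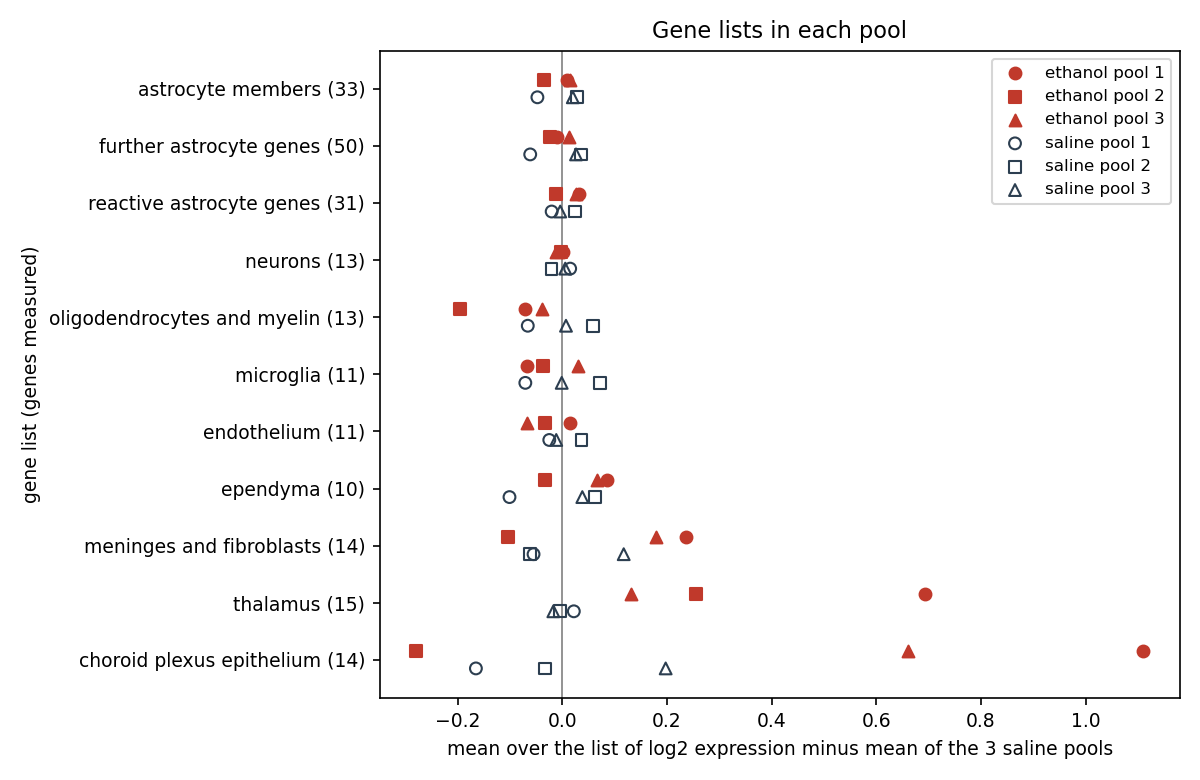
Mean log2 level of the 33 astrocyte genes and of some of the companion and cell type lists in each pool, relative to the mean of the 3 saline pools. Each list has a row, with the ethanol pools drawn just above the saline pools. The astrocyte genes lie between -0.05 and 0.03 in all 6 pools, while the choroid plexus list spans -0.28 to 1.11 and the thalamus list reaches 0.69 in ethanol pool 1.

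The start sites of the astrocyte genes were searched for letters bound by factors of astrocyte fate, in RefSeq windows of 300 bases that run from 250 before to 50 after each start, on both strands. Of the 33 genes 29 matched, with 37 windows, out of 32851 windows of all genes. The STAT letters TTCNNNGAA were in 7 of the 37 windows (18.9%), against 8.3% of all windows, and belonged to Acsbg1, Agt, Aldoc, Gfap, Ntsr2, Pla2g7 and Slc1a3. The differences of these 7 genes lay between -0.06 in Slc1a3 and 0.19 in Agt, and 0 of them passed the test. The core letters bound by nuclear factor I, TTGGC, was in 48.6% of the astrocyte windows and 46.7% of all windows. The full palindrome, 2 such cores facing each other across 5 bases, was in 0 of the 37 and in 0.0365% of all. CCAAT, which overlaps that core where a G comes before it, was in 40.5%, against 37.4%. The TATA box, TATAAA, was in 18.9%, against 13.6%. A match of letters is no evidence that a factor binds there. The sequence of Slc1a3, whose ethanol pools were all below its saline pools, is shown for its STAT match, in capitals, which begins 96 bases before the start (RefSeq, GRCm38.p6, chr15:8710808-8711057, minus strand).
Slc1a3: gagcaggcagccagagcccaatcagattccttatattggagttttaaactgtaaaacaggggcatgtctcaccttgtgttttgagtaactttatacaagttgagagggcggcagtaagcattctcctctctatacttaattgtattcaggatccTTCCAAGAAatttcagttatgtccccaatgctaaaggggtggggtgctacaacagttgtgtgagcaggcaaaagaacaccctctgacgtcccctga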

How the data were processed

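RNA from whole hippocampus was labelled and hybridised to Affymetrix Mouse Gene 1.0 ST arrays. The authors deposited log2 values, 1 per probe set and pool, which they had made with RMA. The RMA software version is not given in the sources used here. Of 35556 probe sets, the 23410 with a symbol were tested, 21789 of them with 1 symbol and 1621 with several. Groups came from the treatment label. Ethanol was compared with saline with limma 3.58.1 (lmFit, then eBayes; R 4.3.3) in a two-sided test without covariates, with Benjamini-Hochberg adjustment over all 23410. The fit was tested on simulated data. Tables and motif searches used Python 3.11.15 with pandas 2.3.3, and figures matplotlib 3.10.9. The replicates are pools, and 3 per group limit the precision.

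The text names all 33 astrocyte genes and, in each other list, up to 3 genes past an unadjusted p of 0.05 with the largest change. Chrdl1, S1pr3, Cd44 and Stat3 were named in addition, after their values were seen. The members and lists were chosen with earlier results of these data known. Of 19938 genes, 19856 were found by Entrez identifier in the RefSeq table. The labels do not say that pools with the same number belong together, so the numbers were not treated as pairs. Deviations from the group mean in pools with the same number had r = -0.05, -0.02 and 0.06. With 3 pools per group, such correlations cannot show whether pools were matched by litter. Pools with different numbers reached r = 0.17 (ethanol pool 2 with saline pool 1) and -0.18 (ethanol pool 2 with saline pool 3). Which pools shared litters is not known here, and the main test took no account of litter. The alternatives were a replicate block, the ordinary t-test, 2 other scalings (median centring and quantiles), 2 filters on level, all rows, averaged probe sets, a trend of variance with intensity, 2 stricter thresholds and leaving out each pool. Protein sequences were not analysed here.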

Additional observations from a re-analysis of the deposited data

How the results depend on the processing

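The count of probe sets past the unadjusted threshold, 1202, was 654 among those above the receptor level, 494 above the median level and 1969 over all rows of the table, settings that change how many are tested. With the replicate number as a block, 1 astrocyte gene passed with a higher level (Agt, 0.19), against 0 without it, and 1 with a lower level, as without it; 1153 probe sets passed in all, and the numbers share no known source. At a change over 1.2-fold or at the adjusted threshold, 0 astrocyte genes were lower, by the stricter rule itself. With single pools left out, 0 to 2 astrocyte genes passed with a higher and 1 to 3 with a lower level, and the median difference ranged from -0.03 to 0.01. Of the 33 genes, 19 kept their sign in every alternative and 14 did not, the largest difference among these being 0.051. With arrays centred on the median, the sign turned in Slc25a18 (-0.0047), Ttyh1 (-0.012), Gjb6 (-0.014), Acsbg1 (-0.0079), S100b (-0.0096) and Id3 (-0.00057), and with quantile normalization in Gfap (0.0042) and Gjb6 (-0.0013). With single pools left out, the ranges of the 14 were -0.017 to 0.033 for Acsbg1, -0.0093 to 0.052 for Apoe, -0.0069 to 0.10 for Fabp7, -0.028 to 0.021 for Fgfr3, -0.048 to 0.031 for Gfap, -0.039 to 0.031 for Gjb6, -0.037 to 0.019 for Glul, -0.057 to 0.063 for Id3, -0.072 to 0.038 for Mlc1, -0.0012 to 0.056 for Ntsr2, -0.062 to 0.011 for Pla2g7, -0.057 to 0.046 for S100b, -0.033 to 0.045 for Slc25a18 and -0.018 to 0.016 for Ttyh1. The cause of these turns was not tested. The planned comparison of protein sequences was not run. All astrocyte genes were above the receptor level, and 3 pools per group limit the precision.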
